A study of Mus musculus with 6 samples.

Results

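Transcript levels of 10 genes of the NF-kB system were examined in mouse bone marrow cells grown with or without extra potassium chloride (KCl). The 10 were 4 subunits (Nfkb1, Nfkb2, Rel, Rela), 4 genes of feedback and signal modulation (Nfkbia, Nfkbiz, Tnfaip3, Traf1), the cytokine gene Tnf and the adhesion molecule gene Icam1. They were taken by symbol from the deposited table of 19162 genes, and all 10 were among the 13326 genes with enough counts to be tested. Both groups were bone marrow cells of C57BL/6J mice held for 4 days in 40 ng/mL granulocyte-macrophage colony-stimulating factor (GM-CSF), the growth factor commonly used to raise dendritic and other myeloid cells from marrow. The control group had no further addition, and the KCl group had 34.7 mM of KCl on top of the medium's own. Each group had 3 libraries, numbered 1, 2 and 4. The series calls the cells myeloid-derived suppressor cells, and no culture with another added salt or solute was analysed here. Whether the replicates were separate mice or separate cultures is not labelled, so the p-values reflect the spread among these libraries alone, part of which may be technical.

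NF-kB is a family of transcription factors that bind DNA as dimers. Nfkb1 and Nfkb2 encode precursors that are cut to p50 and p52, while Rel, Rela and Relb encode c-Rel, RelA and RelB, which carry the activating domain. Inhibitor (IkB) proteins such as the Nfkbia product hold dimers in the cytoplasm until a kinase complex downstream of tumour necrosis factor, interleukin-1 or Toll-like receptors marks them for destruction. The freed dimers switch on inflammatory genes together with the genes of their own inhibitors, so that the response is self-limiting, and RelB with p52 serves a slower branch that is prominent in dendritic cells.

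Promoter sequence is shown because several of these genes are textbook targets of the factors that the others encode. RefSeq promoter windows (GRCm38.p6) were found for 8 of the 10 genes, Nfkb1 and Nfkbiz being the exceptions. In the 250 bases before each annotated start, the 10-letter kappa B consensus was found on either strand in 4 of the 8 (Nfkb2, Rel, Nfkbia, Tnfaip3), or 6 of the 11 windows of the 8 genes, against 3.90% of all 32851 windows. The looser pattern GGNNNTTCC, whose matches overlap those of the consensus, was found in 6 of the 8, which adds Icam1 and Tnf, against 15.7% of all windows. Apart from Nfkb2, the stretches below lie just before annotated exons and are written 5′ to 3′ on the gene's strand, with matches to either pattern in capitals. The Tnfaip3 stretch precedes one of several annotated starts and lies inside the span of a longer annotated transcript, and for Nfkb2 a single site is shown, which lies in an exon of another annotated transcript. Rela is printed as the member that passed the test below, and it held no match.
Nfkbia, chr12:55492648-55492807, minus strand: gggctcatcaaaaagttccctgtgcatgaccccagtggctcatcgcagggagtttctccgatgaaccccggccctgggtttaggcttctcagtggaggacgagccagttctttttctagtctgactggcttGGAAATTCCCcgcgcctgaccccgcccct
Tnfaip3, chr10:19015411-19015547, minus strand: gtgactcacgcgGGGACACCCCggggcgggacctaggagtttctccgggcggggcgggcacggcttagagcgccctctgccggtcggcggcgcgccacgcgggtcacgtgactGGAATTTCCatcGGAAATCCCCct
Rel, chr11:23770971-23771130, minus strand: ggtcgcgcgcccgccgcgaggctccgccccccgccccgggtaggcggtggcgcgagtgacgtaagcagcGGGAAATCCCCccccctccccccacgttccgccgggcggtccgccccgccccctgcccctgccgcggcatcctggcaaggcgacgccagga
Icam1, chr9:21015780-21015939, plus strand: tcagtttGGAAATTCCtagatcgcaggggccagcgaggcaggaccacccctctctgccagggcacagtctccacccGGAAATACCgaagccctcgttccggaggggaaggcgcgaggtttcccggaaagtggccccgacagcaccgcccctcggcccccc
Rela, chr19:5637323-5637482, plus strand: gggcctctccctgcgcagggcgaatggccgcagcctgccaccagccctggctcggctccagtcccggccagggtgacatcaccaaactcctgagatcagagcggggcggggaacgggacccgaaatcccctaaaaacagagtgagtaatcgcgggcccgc
Nfkb2, chr19:46304688-46304717, plus strand: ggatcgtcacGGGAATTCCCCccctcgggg
A match to letters is a description and not a measured binding site, and no binding was measured.

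The comparison asks which of these transcripts differed between cells grown with and without the added KCl. Of the 10 genes, 1 rose (Rela) and none fell at an adjusted p under 0.05 (edgeR's quasi-likelihood test, Benjamini-Hochberg adjustment over all tested genes). The background was 22.9% of all tested genes, with 12.4% higher and 10.5% lower, and 1 of 10 is not above that. At an unadjusted p under 0.05 there were 4 of the 10 (Rela, Nfkb2, Traf1, Icam1), against 34.2% of all tested genes. DESeq2 called 2, Rela higher and Traf1 lower, where it called 2843 of all tested genes. The libraries of the groups did not overlap for Rela and Nfkbia, both higher with KCl, against 20.2% of all tested genes, and for Nfkb2 and Icam1, both lower, against 18.4%. In either direction the background was 38.5%. The median log2 fold change of the 10 was 0.0038, against -0.0045 for all tested genes, and the median size regardless of sign was 0.21 against 0.17.

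A property of the deposited counts bears on every value below. The mean of control 4 and KCl 4 stayed nearer to the mean of the other 4 libraries than counting noise permits: over 8231 well-counted genes the log2 ratio had an SD of 0.0095, where counting noise gives 0.0442 and other pairs of libraries gave 0.123 to 0.262. For the 10 members the largest such log2 ratio was 0.0213. These libraries were therefore not independent of the others, p-values from all 6 may be too small, and the members' values without both are given with each gene. Without them 0 of the 10 members passed, and 0.458% of all genes tested (62 of 13525) did, with all 10 members keeping the sign of their fold change. Library totals were 14118724 to 21694831 counts, and the 10 members had 419 to 7968 counts per library.

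**Figure D1:**
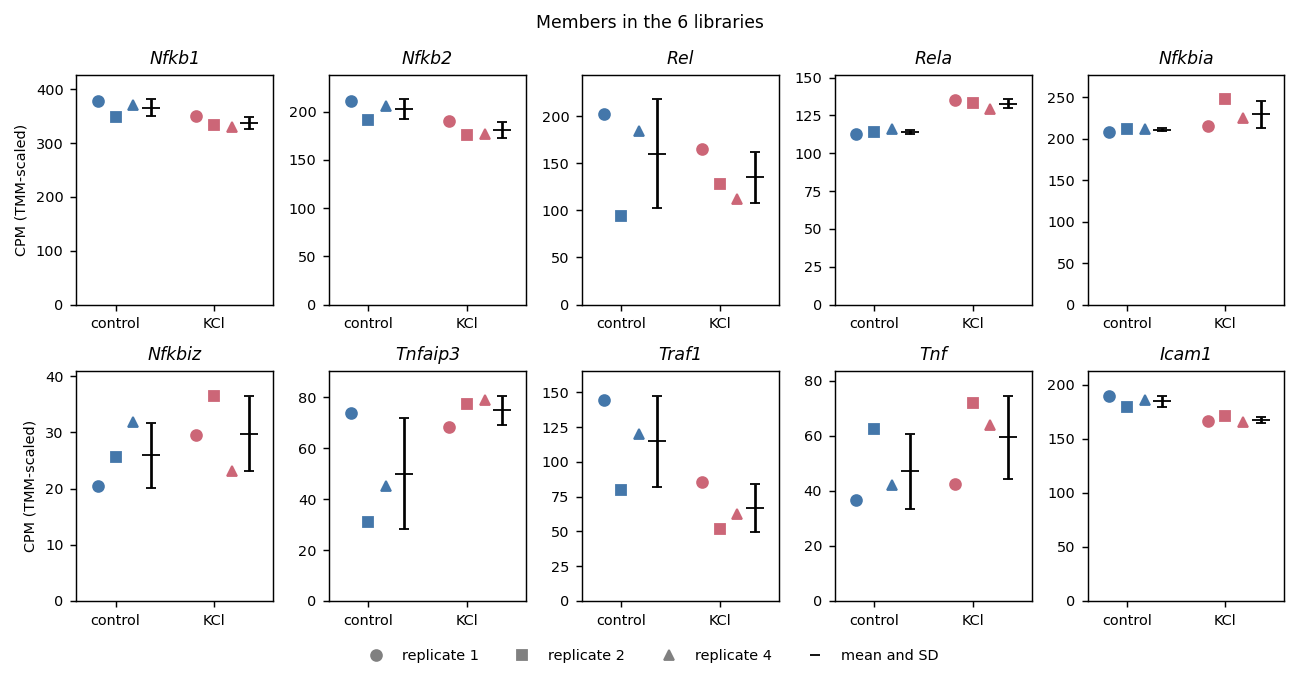
Level of each of the 10 genes in each library, in CPM (counts scaled to library size, with TMM factors), with every axis starting at 0; circles, squares and triangles are replicates 1, 2 and 4, blue is control, red is KCl, and bars are the mean and SD of 3 libraries. Rela is higher in the 3 KCl libraries, Nfkb2 and Icam1 are slightly lower, and Rel, Nfkbiz, Tnfaip3, Traf1 and Tnf spread widely within groups.

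Among the subunits, Rela encodes the main activating subunit of the fast branch and lies on chromosome 19 (5637483 to 5648130, plus strand, mm10). Its level, in CPM (counts scaled to library size, with TMM factors), was 113, 114 and 116 in control 1, 2 and 4 and 135, 133 and 129 in KCl 1, 2 and 4. Every KCl library lay above every control library, and the spread within groups was small. The rise was 1.16-fold, a log2 fold change of 0.22 ± 0.04 (SE; 95% interval 0.11 to 0.32; edgeR adjusted p = 0.0169, n = 3 and 3). Without both libraries of replicate 4 the log2 fold change was 0.24 (edgeR adjusted p = 0.108). The call was also lost, at edgeR adjusted p values of 0.0510 to 0.0887, when any of control 1, control 4, KCl 1 or KCl 4 was left out and when the replicate number or a replicate 4 batch entered the fit.

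Nfkb1, the p105 and p50 gene (chromosome 3, 135584655 to 135691547, minus strand), had the highest read abundance of the 10. It measured 379, 349 and 370 CPM in control 1, 2 and 4 and 351, 334 and 330 CPM in KCl 1, 2 and 4. The ranges touched, since KCl 1 lay just above control 2, and the log2 fold change of -0.11 ± 0.05 (95% interval -0.25 to 0.02) did not pass (edgeR adjusted p = 0.204; -0.09 and 0.497 without both libraries of replicate 4). Nfkb2, the p100 and p52 gene (chromosome 19, 46304320 to 46312385, plus strand), gave 212, 192 and 206 CPM in the controls and 191, 176 and 177 CPM with KCl. The lowest control and the highest KCl library nearly met, and the log2 fold change was -0.16 ± 0.06 (95% interval -0.31 to -0.02; edgeR adjusted p = 0.104). Without both libraries of replicate 4 it was -0.14 (edgeR adjusted p = 0.327). Exons of Nfkb2 overlap annotated antisense genes (Psd and AC114539.1), and without a stated strand setting such reads cannot be told apart.

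Rel, the c-Rel gene (chromosome 11, 23736847 to 23770970, minus strand), was the most uneven subunit. Its CPM was 202, 94.0 and 184 in control 1, 2 and 4 and 165, 128 and 113 in KCl 1, 2 and 4. The KCl libraries all fell inside the control range, and control 2 was the lowest of the 6. The log2 fold change was -0.24 ± 0.30 (edgeR adjusted p = 0.649), with a 95% interval from -0.97 to 0.49 that leaves a change of either sign undetermined at this spread. It was -0.52 without control 2 (edgeR adjusted p = 0.0923), -0.05 without control 1 (edgeR adjusted p = 0.961) and -0.02 without both libraries of replicate 4 (edgeR adjusted p = 0.981).

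Relb, the fifth subunit gene, was not among the 10 members but completes the family. It measured 104, 77.7 and 91.0 CPM in control 1, 2 and 4 and 61.8, 59.1 and 60.3 CPM in KCl 1, 2 and 4. All KCl libraries lay below all control libraries, and Relb fell by 0.59 ± 0.11 on the log2 scale (95% interval -0.85 to -0.33; edgeR adjusted p = 0.0128). Relb passed in each of the 17 alternative fits except the fit without both libraries of replicate 4 (log2 fold change -0.59, edgeR adjusted p = 0.104). Rela was thus higher and Relb lower with KCl, with no overlap between groups for either gene.

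**Figure D2:**
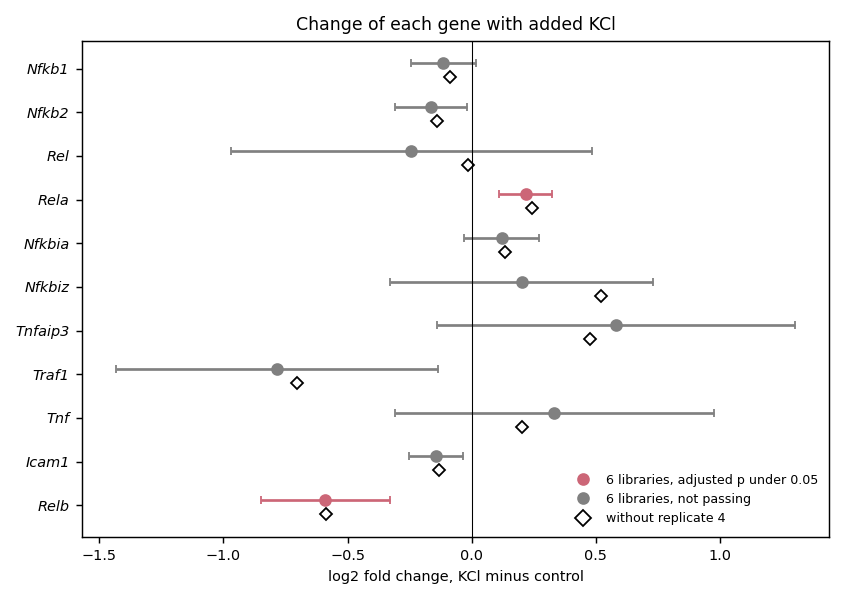
Log2 fold change (KCl minus control) of the 10 members and Relb with 95% intervals from the fit of 6 libraries; red points have an adjusted p under 0.05, grey points do not, and open diamonds are the fit without both libraries of replicate 4. The intervals of Rel, Nfkbiz, Tnfaip3, Traf1 and Tnf are several times wider than those of Nfkb1, Nfkb2, Rela, Nfkbia and Icam1.

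The make-up of the subunit pool was described per length, as each gene's share of the summed deposited FPKM (fragments scaled to gene length and library size) of the 5 subunit genes. Rela made up 26.0% ± 2.36 (SD, n = 3) in control and 32.1% ± 1.05 with KCl, and Relb 10.1% ± 0.668 and 7.18% ± 0.263. Neither gene's groups overlapped. Nfkb2 had the largest share on this scale, 37.0% ± 1.41 and 35.2% ± 0.536. Nfkb1 held 13.9% ± 0.621 and 13.7% ± 0.247, and Rel 12.99% ± 3.85 and 11.8% ± 1.73.

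The order of these shares rests on the gene length used. The length implied by the deposited FPKM of Nfkb1 was 16227 bases, whereas its longest GENCODE transcript has 4149. With the longest transcript as the length, Nfkb1 was the largest share, 38.1% ± 1.35 in control and 38.1% ± 0.455 with KCl, and Nfkb2 was 22.8% ± 0.658 and 22.0% ± 0.285. The contrast between groups did not depend on that choice: Rela was 18.2% ± 1.49 and 22.8% ± 0.631, Relb was 11.9% ± 0.857 and 8.63% ± 0.266, and again neither overlapped. These shares describe transcripts and not the proteins or dimers formed.

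**Figure D3:**
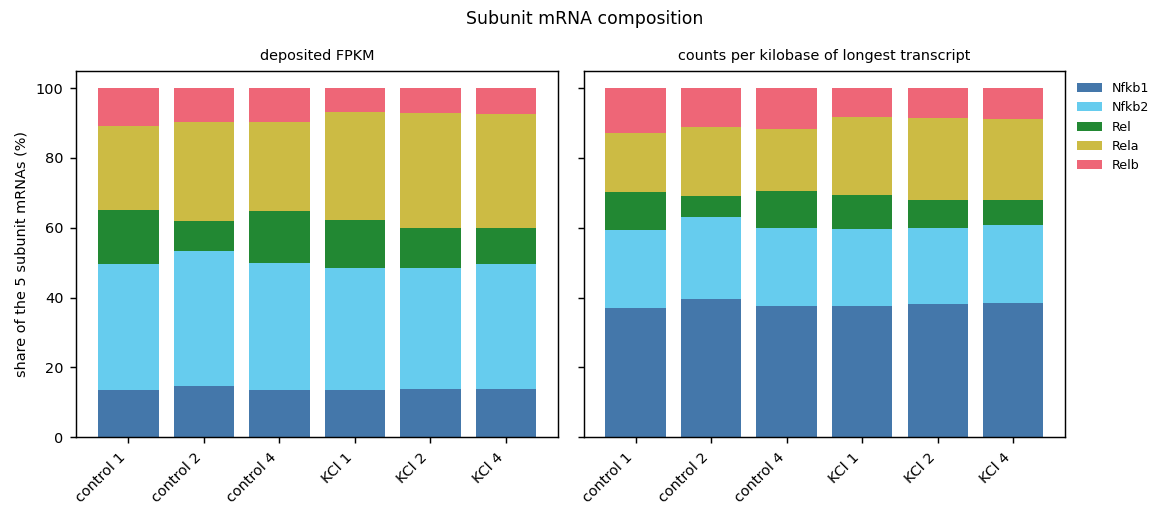
Share (%) of each subunit gene in the summed level of the 5 subunit mRNAs in each library, left by deposited FPKM and right by counts per kilobase of the longest GENCODE transcript. On both scales the Rela segment is larger and the Relb segment smaller in every KCl library than in any control library, while the order of Nfkb1 and Nfkb2 differs between scales.

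The inhibitors and modulators held no gene that passed. Nfkbia (chromosome 12, 55489410 to 55492647, minus strand) encodes IkB-alpha, the inhibitor that a freshly activated dimer resupplies. Its CPM was 208, 212 and 211 in control 1, 2 and 4 and 215, 248 and 225 in KCl 1, 2 and 4. Each KCl library was above each control library, KCl 1 by the least, and the controls varied by 0.904% (coefficient of variation). The log2 fold change of 0.12 ± 0.06 (95% interval -0.03 to 0.27) did not pass (edgeR adjusted p = 0.241; 0.14 and 0.365 without both libraries of replicate 4). Per length Nfkbia was the highest of the 10, at 135 ± 0.908 FPKM in control and 144 ± 7.02 FPKM with KCl (SD, n = 3).

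Tnfaip3 (chromosome 10, 19000910 to 19015657, minus strand) encodes A20, a ubiquitin-editing enzyme that shuts the pathway down upstream of the kinase complex. It measured 73.7, 31.1 and 45.2 CPM in control 1, 2 and 4 and 68.4, 77.4 and 79.1 CPM in KCl 1, 2 and 4. The 3 KCl libraries were close together, while the controls spread over a 2.37-fold range in which control 1 reached the KCl values. The log2 fold change was 0.58 ± 0.30 (95% interval -0.14 to 1.3; edgeR adjusted p = 0.239). Without control 1 Tnfaip3 passed, at a log2 fold change of 0.97 (edgeR adjusted p = 0.0281), and without control 2 it was 0.33 (edgeR adjusted p = 0.392), so the result rests on those libraries. Without both libraries of replicate 4 it was 0.48 (edgeR adjusted p = 0.457).

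Nfkbiz (chromosome 16, 55811375 to 55838899, minus strand) encodes IkB-zeta, a nuclear relative that acts with p50 at secondary response genes. Its CPM was 20.4, 25.6 and 31.9 in control 1, 2 and 4 and 29.5, 36.5 and 23.2 in KCl 1, 2 and 4. The groups overlapped, and the log2 fold change of 0.20 ± 0.22 (95% interval -0.33 to 0.73) did not pass (edgeR adjusted p = 0.617). Without both libraries of replicate 4 it was 0.52 (edgeR adjusted p = 0.134).

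Traf1 (chromosome 2, 34941750 to 34961772, minus strand) encodes an adaptor of tumour necrosis factor receptors and is itself a target of the pathway. It had the largest estimated change of the 10. The libraries gave 145, 79.7 and 120 CPM in control 1, 2 and 4 and 85.6, 52.0 and 62.5 CPM in KCl 1, 2 and 4. Only control 2 and KCl 1 overlapped. The log2 fold change was -0.78 ± 0.27 (95% interval -1.43 to -0.14) and did not pass (edgeR adjusted p = 0.0875). It passed with DESeq2 (adjusted p = 0.00956), with the replicate number as a block in edgeR (adjusted p = 0.0256) and without control 2 in edgeR (adjusted p = 0.0340). Without both libraries of replicate 4 the log2 fold change was -0.71 (edgeR adjusted p = 0.257).

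The cytokine and adhesion targets did not pass either. Tnf (chromosome 17, 35199381 to 35202007, minus strand) encodes tumour necrosis factor, a product and an activator of the pathway. Its CPM was 36.7, 62.6 and 42.0 in control 1, 2 and 4 and 42.6, 72.0 and 63.9 in KCl 1, 2 and 4. Replicate 2 was the highest library of each group, the groups overlapped, and the log2 fold change was 0.33 ± 0.26 (95% interval -0.31 to 0.97; edgeR adjusted p = 0.489). It was 0.20 without both libraries of replicate 4 (edgeR adjusted p = 0.725).

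Icam1 (chromosome 9, 21015985 to 21028817, plus strand) encodes the ligand of leukocyte integrins. It gave 190, 180 and 186 CPM in the controls and 166, 171 and 165 CPM with KCl, with no overlap. The log2 fold change was -0.14 ± 0.05 (95% interval -0.25 to -0.03; edgeR adjusted p = 0.0690). It passed with upper-quartile scaling (edgeR adjusted p = 0.0232), with library-size scaling (edgeR adjusted p = 0.0419) and with limma on log2(FPKM + 1) (adjusted p = 0.0473), and gave -0.13 without both libraries of replicate 4 (edgeR adjusted p = 0.275). An antisense gene, Gm47079, overlaps exons of Icam1.

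The 10 genes thus fell into an even and an uneven set. Within each group, Nfkb1, Nfkb2, Rela, Nfkbia and Icam1 had coefficients of variation of 0.904% to 7.29%. For Rel, Nfkbiz, Tnfaip3, Traf1 and Tnf the coefficients ran from 7.68% to 43.4%, the highest being Tnfaip3 in control and the lowest Tnfaip3 with KCl. Per length, the mean over all libraries ran from Nfkbia through Icam1 (73.4 FPKM in control and 65.5 with KCl), Nfkb2 (60.4 and 53.1), Rela (42.3 and 48.5), Nfkb1 (22.7 and 20.7), Rel (21.6 and 18.0), Tnf (15.6 and 19.3), Traf1 (8.67 and 4.97) and Tnfaip3 (3.61 and 5.33) to Nfkbiz (3.65 and 4.10). Library values of Nfkb1, Rel and Tnf overlapped one another, as did those of Traf1, Tnfaip3 and Nfkbiz, and Nfkb2 and Rela met at their margins. The FPKM of Traf1, Tnfaip3, Nfkbiz and Tnf also implied lengths of 3.89, 2.25, 1.74 and 1.86 times the longest GENCODE transcript. By the longest transcript, Nfkb1 moved up to the place after Nfkbia, and Tnf and Traf1 moved ahead of Rel.

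Among the uneven genes, the library orders of Traf1 and Nfkbiz were compared with those of marker genes. Rel, Traf1 and Relb were highest in control 1, next in control 4 and lower in control 2. Among the KCl libraries Relb kept the order of Traf1, but Rel did not, being lowest in KCl 4. Ccr7, the chemokine receptor of migrating mature dendritic cells, measured 563, 275 and 444 CPM in control 1, 2 and 4 and 268, 193 and 216 CPM in KCl 1, 2 and 4. Fscn1, the actin bundler of mature dendritic cells, measured 289, 156 and 239 CPM in control 1, 2 and 4 and 154, 85.7 and 111 CPM in KCl 1, 2 and 4. Within each group both had the same order of libraries as Traf1, and neither passed the test (edgeR adjusted p = 0.0556 and 0.0603). Of the 12 mature dendritic cell markers examined, 9 had that order and 3 (Il4i1, Socs2, Apol7c) did not. The share of all tested genes with that order was not computed, so the count has no background and does not link Traf1 to these cells. Il4i1, an amino acid oxidase gene that fell, measured 393, 447 and 413 CPM in control 1, 2 and 4 and 240, 293 and 270 CPM in KCl 1, 2 and 4, with replicate 2 highest in both groups.

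Of these 12 markers, 5 fell and none rose, against 10.5% lower and 12.4% higher among all tested genes. Their median log2 fold change was -0.75. Their summed level was 4449, 2427 and 3723 CPM in control 1, 2 and 4 and 2539, 1941 and 2016 CPM in KCl 1, 2 and 4, and none of the 12 averaged under 1 CPM. Per 1000 CPM of these markers, Traf1 stood at 32.5, 32.8 and 32.3 CPM in control 1, 2 and 4 and at 33.7, 26.8 and 31.0 CPM in KCl 1, 2 and 4. On that ratio Traf1 differed between groups by -0.09 on the log2 scale and Relb by 0.09, against -0.78 and -0.59 on the plain scale. For the 9 other members the difference on that ratio ran from 0.48 to 1.35, with Rel at 0.48, Nfkb1 at 0.53, Rela at 0.85 and Tnfaip3 at 1.35. On the plain scale these 4 genes stood at -0.24, -0.11, 0.22 and 0.58. The mean of the summed markers was itself lower with KCl, so a gene with no plain change gives a positive difference on the ratio. With the 7 markers that are on no pathway list here as the base, the log2 differences were -0.08 for Traf1 and 0.11 for Relb. Per 1000 CPM of these 7, Traf1 was less even, at 77.5, 65.3 and 73.6 CPM in control 1, 2 and 4. In KCl 1, 2 and 4 it was 78.1, 58.7 and 68.0 CPM. In these bulk samples fewer mature dendritic cells and less RNA per cell cannot be told apart, and the part of these markers in the members' values was not tested.

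Nfkbiz followed another pattern, high in control 4, KCl 1 and KCl 2. The mean of control 4 and KCl 4 was tied to that of the other libraries, so a gene high in control 4 tends to be low in KCl 4. The order of libraries is thus partly constrained, and a shared order cannot be read as a shared source. The neutrophil chemokine receptor gene Cxcr2 measured 51.8, 78.6 and 157 CPM in control 1, 2 and 4 and 133, 206 and 68.8 CPM in KCl 1, 2 and 4. Retnlg, a resistin-like gene of neutrophils, measured 12.6, 19.6 and 45.9 CPM in control 1, 2 and 4 and 39.8, 60.4 and 17.4 CPM in KCl 1, 2 and 4. All 6 libraries stood in the same order by Nfkbiz as by 3 of 8 neutrophil markers, Cxcr2, Retnlg and Ly6g. The other 5, the granule and calcium-binding protein genes Ltf, Ngp, Camp, S100a8 and S100a9, had other orders. Ltf, for one, measured 2251, 2944 and 2608 CPM in control 1, 2 and 4 and 3636, 5779 and 4441 CPM in KCl 1, 2 and 4, so that KCl 4 lay above every control, unlike for Nfkbiz. Il1b, Cxcl2 and Map3k8, which are not on the neutrophil list, had the order of Nfkbiz too, and Irak2 did not. The share of all tested genes with that order was not computed. Cxcr2, Retnlg, these further genes and Fscn1 above were chosen after their values were seen. What part neutrophils had in the Nfkbiz values was not tested.

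**Figure D4:**
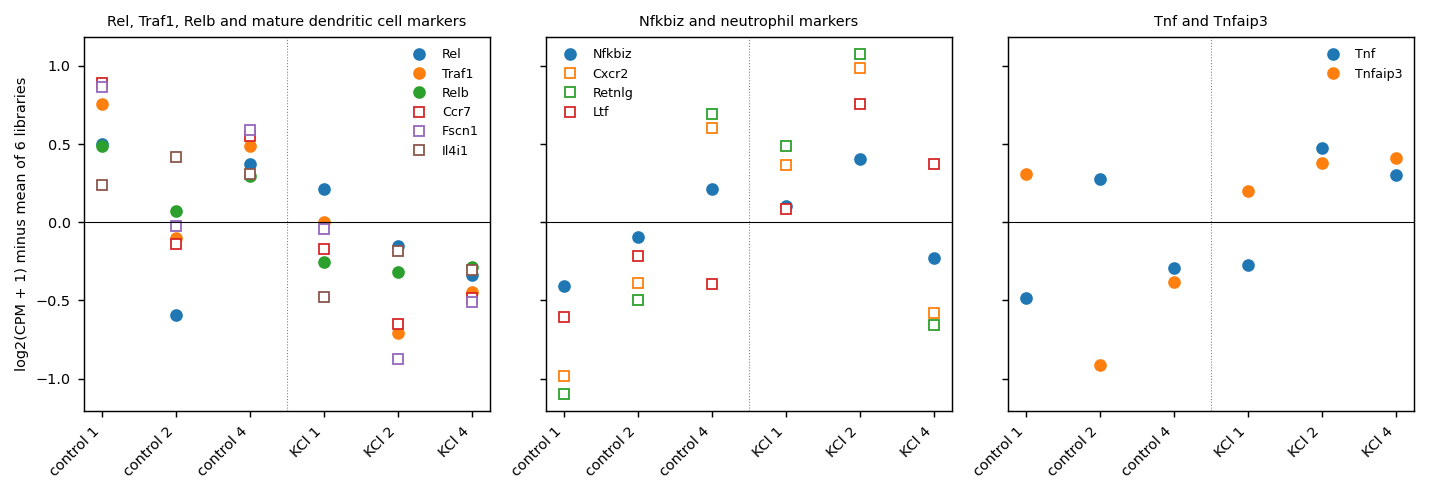
Deviation of each library from the mean of the 6 libraries on the log2(CPM + 1) scale, for uneven members with Relb (filled circles) and marker genes, chosen after their values were seen (open squares); the dotted line divides control from KCl. Rel, Traf1 and Relb share high values in control 1 and control 4 with Ccr7 and Fscn1 but Il4i1 is highest in control 2, Nfkbiz shares high values in control 4, KCl 1 and KCl 2 with Cxcr2 and Retnlg but not with Ltf, and Tnf and Tnfaip3 are furthest apart in control 2.

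As to which cells the RNA came from, the 8 general myeloid genes (Lyz2, Cybb and others) summed to 10360 to 12444 CPM in control and 15436 to 19001 CPM with KCl, with 4 higher and none lower. The 8 neutrophil markers summed to 13361 to 14653 CPM and 15751 to 22584 CPM, with 2 higher. The 8 macrophage markers summed to 859 to 1086 CPM in control and 1218 to 1311 CPM with KCl, with 2 higher. The 6 monocyte markers summed to 950 to 1119 CPM in control and 1306 to 1558 CPM with KCl, with 3 higher. Of 10 conventional dendritic cell markers 6 fell and none rose (5362 to 7010 CPM in control, 3996 to 4992 CPM with KCl), and of 7 eosinophil, basophil and mast cell markers 3 fell. Lymphocyte markers summed to 10.8 to 18.7 CPM, with Cd3e, Cd3g, Cd4 and Cd8a each under 1 CPM. Among all tested genes, 12.4% were higher and 10.5% lower. The part of these shifts in the members' values was not tested.

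Around the members, 100 other tested genes of the pathway were counted by role, and 12 rose and 11 fell, which is 23% against the background of 22.9% of all tested genes. None of the 100 passed without both libraries of replicate 4. The median of the 100 was 0.06 on the log2 scale. Of 11 receptors, 5 rose and 1 fell, and the median log2 fold change was 0.39. Of 31 adaptors and kinases, none rose and 1 fell, with a median of 0.07.

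The receptors that start the pathway included both tumour necrosis factor receptors. Tnfrsf1a, the widely expressed one, measured 141, 167 and 161 CPM in control 1, 2 and 4 and 217, 245 and 220 CPM in KCl 1, 2 and 4, and rose by 0.54 ± 0.08 on the log2 scale (edgeR adjusted p = 0.00776, and 0.0804 without both libraries of replicate 4). Tnfrsf1b, the leukocyte one, measured 345, 439 and 408 CPM in control and 582, 618 and 576 CPM with KCl, and rose by 0.58 ± 0.10 (edgeR adjusted p = 0.00979, and 0.0887 without those libraries). Groups did not overlap for either gene. Il1r1, the signalling interleukin-1 receptor, rose from a low level, with 3.00, 3.39 and 3.39 CPM in control and 7.40, 7.46 and 6.58 CPM with KCl (log2 fold change 1.13 ± 0.11, edgeR adjusted p = 0.00315, and 0.0686 without those libraries).

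Of the endotoxin and lipopeptide receptors, Tlr4 rose by 0.55 ± 0.12 on the log2 scale (edgeR adjusted p = 0.0242) and Tlr2, named here after its values were seen, by 0.46 ± 0.12 (edgeR adjusted p = 0.0359, and 0.147 without both libraries of replicate 4). The Tlr4 call was lost in 6 alternative fits (edgeR adjusted p of 0.0527 to 0.0852), counting that without both libraries of replicate 4 apart (0.127). Il1rl1, the interleukin-33 receptor gene of mast cells, basophils and others, fell by 0.43 ± 0.09 (edgeR adjusted p = 0.0198), a call lost in 5 alternative fits and without both libraries of replicate 4 (0.130). Of the 7 eosinophil, basophil and mast cell markers, Epx, Prg2 and Mcpt8 fell, the other 4 did not pass, and the median log2 fold change was 0.07. The mast cell and basophil genes Ms4a2 and Cpa3 stood at 1.15 ± 0.42 and 0.07 ± 0.14 (edgeR adjusted p = 0.108 and 0.778). The part of these cells in the Il1rl1 value was not tested.

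Between receptor and kinase the list was nearly flat. Malt1, the protease of the CARD-BCL10-MALT1 complex, was the gene that fell, from 209, 231 and 219 CPM in control 1, 2 and 4 to 164, 149 and 158 CPM in KCl 1, 2 and 4 (log2 fold change -0.49 ± 0.06, edgeR adjusted p = 0.00500, and 0.0772 without both libraries of replicate 4). Map3k14, the NIK kinase of the slow branch, measured 139, 83.5 and 117 CPM in control and 83.8, 57.2 and 66.2 CPM with KCl, with a log2 fold change of -0.71 ± 0.22 that did not pass (edgeR adjusted p = 0.0649). Its libraries had the same order as those of Traf1. Birc2, a ubiquitin ligase that keeps NIK low, stood at a log2 fold change of -0.41 ± 0.13 (edgeR adjusted p = 0.0694), and Tbk1 at 0.20 ± 0.06 (edgeR adjusted p = 0.0614). Map3k14 and Birc2 both passed with the replicate number as a block, without control 2 and with DESeq2. Neither passed without both libraries of replicate 4 (edgeR adjusted p = 0.219 and 0.234).

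None of 16 further brakes of the pathway passed in the main edgeR fit, against 22.9% of all tested genes. The median log2 fold change was 0.05, and 1 gene had an unadjusted p under 0.05, against 34.2% of all tested genes. That gene was Zc3h12a, the ribonuclease regnase-1, at 0.22 ± 0.06 (edgeR adjusted p = 0.0546). Zc3h12a passed with a filter of a mean CPM of at least 5 (edgeR adjusted p = 0.0488), but not without both libraries of replicate 4 (edgeR adjusted p = 0.190). Of 7 further Rel and IkB family genes, Relb fell and 6 did not pass, among them Bcl3, a nuclear IkB, at a log2 fold change of 0.12 ± 0.07 (edgeR adjusted p = 0.307).

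Other textbook targets moved in both directions. Of 35 tested, 7 rose and 8 fell, against 12.4% higher and 10.5% lower among all tested genes. The median log2 fold change was 0.01, and Nos2, Csf2 and Il10 could not be tested. Ptgs2, the inducible cyclooxygenase, rose from 1.71, 2.01 and 2.05 CPM in control to 5.04, 6.29 and 5.03 CPM with KCl (log2 fold change 1.5 ± 0.15, edgeR adjusted p = 0.00332, and 0.0686 without both libraries of replicate 4). Ier3, an early response gene that modulates cell survival, rose from 81.7, 104 and 101 CPM to 177, 210 and 182 CPM (log2 fold change 0.99 ± 0.11, edgeR adjusted p = 0.00430, and 0.0686 without those libraries). Neither gene's groups overlapped. The neutrophil-attracting chemokine genes Cxcl3 and Cxcl1, named after their values were seen, rose by 1.54 and 1.40 on the log2 scale (edgeR adjusted p = 0.00869 and 0.0316, and 0.0821 and 0.156 without those libraries), while their relative Cxcl2 gave 0.47 ± 0.43 (edgeR adjusted p = 0.561).

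Among the targets that fell, Gadd45b, a stress sensor of stress-kinase signalling, went from 72.5, 64.4 and 67.4 CPM in control 1, 2 and 4 to 41.8, 43.0 and 43.6 CPM in KCl 1, 2 and 4 (log2 fold change -0.67 ± 0.06, edgeR adjusted p = 0.00299, and 0.0655 without both libraries of replicate 4). The survival gene Bcl2a1b fell by 0.62 ± 0.09 on the log2 scale (edgeR adjusted p = 0.00649, and 0.0811 without those libraries), but it has near-identical copies, so its counts are uncertain. Of the 8 that fell, Cd80, Cd83 and Il12b are also mature dendritic cell markers. These 3, picked out after their values were seen, fell by 0.78, 1.11 and 2.24 on the log2 scale (edgeR adjusted p without both libraries of replicate 4 of 0.0971, 0.129 and 0.111).

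**Figure D5:**
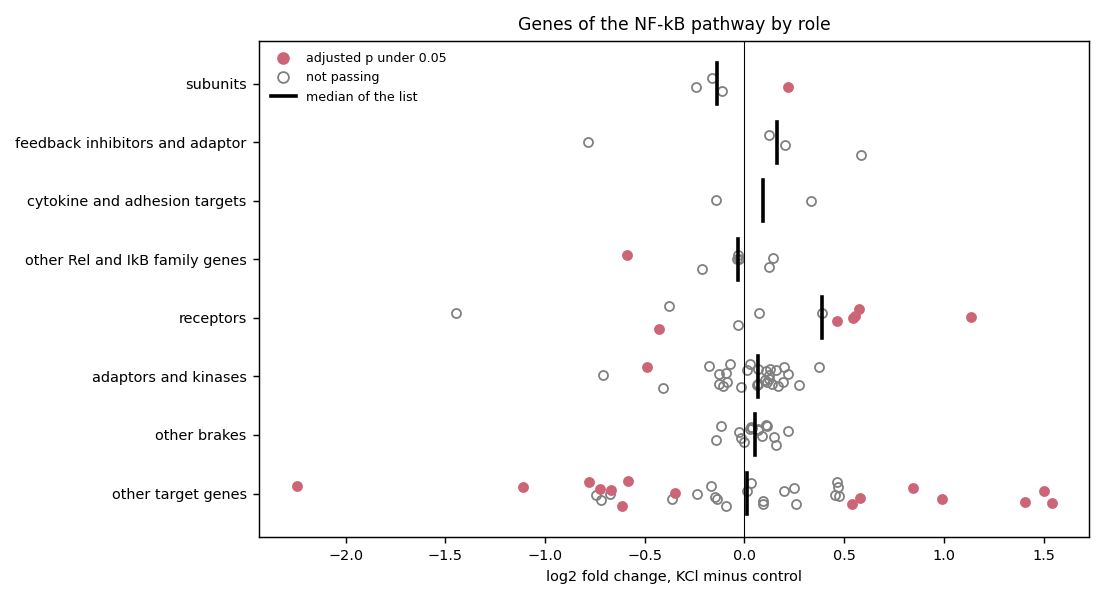
Log2 fold change (KCl minus control) of each tested gene of the pathway by role, with the members in the top 3 rows; red points have an adjusted p under 0.05 in edgeR's quasi-likelihood test, open points do not, and black bars are medians. Receptors sit mostly to the right, adaptors and kinases and other brakes cluster near 0, and other target genes spread to both sides.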

How the data were processed

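Trizol extraction and Illumina NovaSeq sequencing are stated in the labels' protocols, and HISAT2 2.0.4, StringTie 1.3.3b, edgeR and the build mm10 are named in the submitters' processing notes. For the counting program, its strand setting and the gene lengths, the origin is not given in the sources used here. Per gene and library, the authors deposited 2 values, a raw count and an FPKM.

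The counts went into edgeR 4.0.16 under R 4.3.3 (filterByExpr, minimum count 10 and minimum total 15; TMM scaling; robust quasi-likelihood test, 2-sided; Benjamini-Hochberg adjustment over 13326 genes, threshold 0.05) and the test was checked on simulated counts. Intervals are 95%. FPKM served for levels per length and, as log2(FPKM + 1), for one alternative. CPM is TMM-scaled. Alternatives were 3 other scalings, 2 other filters, a replicate block, a replicate 4 batch term, each library or both of replicate 4 left out, DESeq2 1.42.0, limma-voom (limma 3.58.1) and limma on FPKM.

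Members and gene lists were chosen with earlier results of these data known. Named genes were the 10 members, Relb, the 5 genes with the smallest p of each other list and the 3 most abundant of each marker list, others being marked in the text. Coordinates are from GENCODE M21 and promoters from RefSeq.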

Additional observations from a re-analysis of the deposited data

How the results depend on the processing

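All 10 members kept the sign of their log2 fold change in each of the 17 alternatives. Of the 10 members, 1 passed with all 6 libraries, 2 with upper-quartile scaling, 2 with library-size scaling, 2 with DESeq2, 2 with limma on log2(FPKM + 1), 0 with replicate 4 as a batch term, and 0 to 2 when libraries were left out. Over all genes, 3057 passed, against 1678 with the replicate number as a block, 1573 with replicate 4 as a batch term and 62 to 2851 when libraries were left out, the 62 being without both libraries of replicate 4. Without control 4 the count was 1439, without KCl 4 it was 1505. In the fits where 2 members passed, the count over all genes stayed near that of the main fit. It was 3157 with upper-quartile scaling, 3094 with library-size scaling, 2843 with DESeq2 and 3077 with limma on log2(FPKM + 1). Without control 2, where 2 members also passed, it was 2851. Of the 100 other pathway genes, 23 passed, and 0 to 30 did when libraries were left out, 0 without both libraries of replicate 4. The cause of these changes was not tested.

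With the replicate number as a block, 1 member passed, Traf1 lower instead of Rela higher. Same-numbered control and KCl libraries deviated from their group means with correlations of 0.02, -0.06 and -0.93 over genes. These correlations cannot decide whether the numbers pair the samples. The mean of control 4 and KCl 4 was tied to that of the other libraries, which constrains the correlations. Of the 64 named genes, Nfkbid, a nuclear IkB gene with a log2 fold change of 0.14, was the only one to reverse, at -0.012 without control 1 (edgeR adjusted p = 0.985). Its values without single libraries ran from -0.012 to 0.39. Of the 27 named genes that passed, 16 did so in every alternative other than that without both libraries of replicate 4, where 1 did. Upper-quartile scaling moved the median of all genes by -0.05 on the log2 scale. The lowest count of a member in any library was 419 (Nfkbiz in KCl 4), and neither depth nor the number of libraries was varied.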

Other observations

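Genes of the wider tumour necrosis factor superfamily named Tnfsf or Tnfrsf with a number, assembled after the values were seen, were counted in the same fit. Family members with other names were left out, among them Tnf, which did not pass (log2 fold change 0.33, edgeR adjusted p = 0.489). Of 9 tested ligand genes, 5 rose and none fell, with a median log2 fold change of 0.49, against 12.4% higher and 10.5% lower among all tested genes. All 5 calls were lost without both libraries of replicate 4 (edgeR adjusted p of 0.0686 to 0.103). Tnfsf13b, the B cell survival factor BAFF, rose by 1.25 ± 0.11 on the log2 scale and its relative Tnfsf13, known as APRIL, by 1.02 ± 0.16. Tnfsf13 and its neighbour Tnfsf12, which rose by 0.49 ± 0.09, share a read-through transcript, so their counts are uncertain. Tnfsf9 and Tnfsf14, ligands that costimulate T cells, rose by 0.85 ± 0.11 and 0.59 ± 0.07.

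Of 17 tested receptor genes, 3 rose and 4 fell, with a median of -0.03, against the same background. All 7 calls were lost without both libraries of replicate 4 (edgeR adjusted p of 0.0607 to 0.191). Those that rose were Tnfrsf26, a decoy-like receptor, by 0.79 ± 0.08, with Tnfrsf1a and Tnfrsf1b. Those that fell were Tnfrsf4, or OX40, by 1.10 ± 0.18, Tnfrsf18, or GITR, by 0.81 ± 0.10, Tnfrsf10b by 0.37 ± 0.09 and Tnfrsf13b by 0.31 ± 0.05. Tnfrsf9, or 4-1BB, the receptor of the Tnfsf9 product, measured 287, 100 and 232 CPM in control 1, 2 and 4 and 130, 34.8 and 61.8 CPM in KCl 1, 2 and 4. Its log2 fold change of -1.45 ± 0.57 did not pass (edgeR adjusted p = 0.131), and within each group its libraries stood in the same order as those of Traf1.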
